A study of Condylura cristata and Mus musculus with 12 samples.

Results

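The heterotrimeric G protein subunit genes and the RGS genes were followed in the sensory ganglia of the star-nosed mole and the mouse. Members were the genes whose symbol follows the Gna, Gnb, Gng or numbered Rgs pattern, which covers alpha, beta and gamma subunits and RGS proteins. The rule took 51 of 33773 genes in the mole table and 51 of 26125 in the mouse table, and the same 51 symbols were found in both. RNA was sequenced from trigeminal ganglia (TG), which supply the face and, in this mole, the touch organ on the snout, and from dorsal root ganglia (DRG), whose fibres reach the trunk and limbs. The mole samples came from adult, wild male Condylura cristata, with 3 libraries of each ganglion, and the mouse samples from adult female C57BL/6, with 2 libraries of each ganglion used here. The labels name no transgene or treatment, each sample came from 1 animal apart from 1 mole DRG sample that combined 2, and species, sex and strain cannot be told apart. A different library kit (Genomic Sample Prep) was used for mole TG 1 and mole DRG 1 than for the other 8 libraries (TruSeq).

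Receptors coupled to G proteins sense many of the chemicals that excite or silence sensory neurons. A receptor loads GTP onto the alpha subunit, which separates from the beta-gamma pair, and the alpha subunit and the pair then act on enzymes and ion channels. The alpha subunit ends the signal by hydrolysing GTP, and RGS proteins hasten that step, so they shorten the response. Alpha subunits fall into classes by target: Gs raises cyclic AMP, Gi/o/z lowers it or acts on channels and Gq drives phospholipase C beta, while G12/13 forms a class of its own.

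The subunits are encoded by related genes, so their sequences were compared to see where a short read could belong to more than 1 of them. Reads were 76 bases in mole TG 1 and mole DRG 1 and 36 or 50 bases in the others. The labels call the mouse reads paired-end and the study's methods call all reads single-end, so what a mouse count stands for is uncertain. The 3 longest runs shared exactly by 2 members, in mouse transcripts of GENCODE M21 (GRCm38), joined alpha subunits and were 38, 35 and 35 bases long. They are shown because the results compare these alpha subunits with each other. All letters of each run are common to both transcripts.
Gna11 and Gnaq: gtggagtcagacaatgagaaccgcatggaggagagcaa
Gnai2 and Gnao1: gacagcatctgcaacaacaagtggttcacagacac
Gnai2 and Gnaz: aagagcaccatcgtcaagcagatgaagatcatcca
Windows of 36 bases shared with another member made up 0.178% of the Gna11 transcript and 0.107% of that of Gnaq, and none were found in the other members. The longest transcript linked to RefSeq stood for each gene, so other isoforms were not searched. Mole reads were aligned to human, dog and mouse transcripts with mismatches allowed, and the mole sequences were not analysed here. Exons of Rgs11 overlap Arhgdig, those of Gng3 overlap Bscl2 and those of Gna12 overlap Amz1, each on the opposite strand. Exons of Rgs20 overlap Atp6v1h and those of Gnas overlap Gm20721 on the opposite strand. Exons of Gnb2 overlap Epo, those of Gnb1l overlap Rtl10 and those of Gng10 overlap Gm20503 on the same strand, and exons of Gna13, Gnao1, Gnb5, Gng2, Gng12, Rgs6, Rgs8, Rgs12 and Rgs16 overlap noncoding transcripts on the opposite strand. The sources used here do not state whether counting used strand, so counts of these genes are uncertain to that extent.

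Several alpha subunit genes lie close together in pairs on the mouse genome (GRCm38). Gnaq (chr19:16132831-16387463) lies close to Gna14 (chr19:16435762-16610820), Gna11 (chr10:81528724-81545190) close to Gna15 (chr10:81502306-81524225), and Gnai3 (chr3:108107280-108146146) close to Gnat2 (chr3:108092789-108101432). Rgs4 (chr1:169741477-169747642) lies close to Rgs5 (chr1:169655501-169695813). Gna14, Gnai3 and Rgs4 were called in the mole and Gnaq, Gnat2 and Rgs5 were not, but the difference within a pair was not tested.

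Library totals were 8409670 to 11140894 counts in the mole TG, 9706906 to 92323879 in the mole DRG, 126677697 to 147076817 in mouse libraries labelled TG and 90548941 to 125816358 in those labelled DRG. Members held 0.419 to 0.626% of counts in the mole and 0.633 to 0.810% in the mouse. Mole TG 1 stood apart from the other mole TG libraries (rank correlations of 0.869 and 0.859, against 0.974 between those 2), and mole DRG 2 from the other DRG libraries (0.922 and 0.903, against 0.969). Of 10 trunk Hox genes, which mark body segments behind the head, 9 were higher in the mole DRG, with summed levels of 14.3 to 16.8 CPM in TG and 165 to 191 CPM in DRG. In the mouse all 10 were higher in the libraries labelled TG, at 91.0 to 97.3 CPM against 7.02 to 7.96 CPM in those labelled DRG, which goes against the labels. Sums of nociceptor, myelinating Schwann cell and central nervous system markers, given below, also went in opposite directions by label in the mole and the mouse. Skeletal muscle markers, by contrast, were higher in TG as labelled in both species (8 of 9 tested in the mole and 6 of 9 in the mouse). Mouse groups are therefore given as libraries labelled TG or DRG, and every mouse direction rests on those labels. The 10 neuronal markers summed to 14804 to 43610 CPM per library. Levels are CPM, which are counts scaled by the library total and its TMM factor in edgeR. Each log2 fold change is that of TG relative to DRG and is given with a standard error (SE), and a gene was called at a Benjamini-Hochberg adjusted p under 0.05 by edgeR's quasi-likelihood test over all genes tested.

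In the mole, G protein and RGS genes that differed between the ganglia were mostly higher in the DRG. Of 47 members tested, 10 were higher in the DRG, where 12.9% of all genes tested were called, and 2 were higher in the TG, where 10.5% of all genes were called. The 10 were the alpha subunits Gna14, Gnai3, Gnao1 and Gna13, the beta subunit Gnb5, the gamma subunit Gng2 and the regulators Rgs4, Rgs7, Rgs3 and Rgs8, and the 2 were Gnb1 and Rgs11. The median log2 fold change was -0.41 over the 47 members and 0.11 over all genes, with 32 members below 0 and 15 above. The ganglia did not overlap in 15 members higher in the DRG (31.9%, against 22.4% of all genes tested) and in 5 higher in the TG (10.6%, against 21.7%). In these bulk samples, fewer cells of a type and less RNA per cell cannot be told apart. Of 8 nociceptor markers tested in the mole, 6 were higher in the DRG and the rest were not called, with summed levels of 522 to 660 CPM in the TG and 3748 to 5073 CPM in the DRG. Of 8 markers of myelinating Schwann cells, 5 were higher in the TG, with sums of 9342 to 10789 CPM in the TG and 1743 to 3450 CPM in the DRG. None of these markers was at 0 in every library, and their part in the member results was not tested. Markers of skeletal muscle (8 of 9 tested) and of the central nervous system (6 of 8) were also higher in the mole TG, while Aqp4, another of the 8, was higher in the DRG. Of 10 neuronal markers, Snap25, Syt1 and Elavl4 were higher in the mole DRG and the rest were not called (median log2 fold change -0.63 over the 10). Of 8 markers of touch neurons and proprioceptors, 3 were higher in the mole DRG and 1, Stoml3, in the TG. The part of these markers was not tested either.

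**Figure D1:**
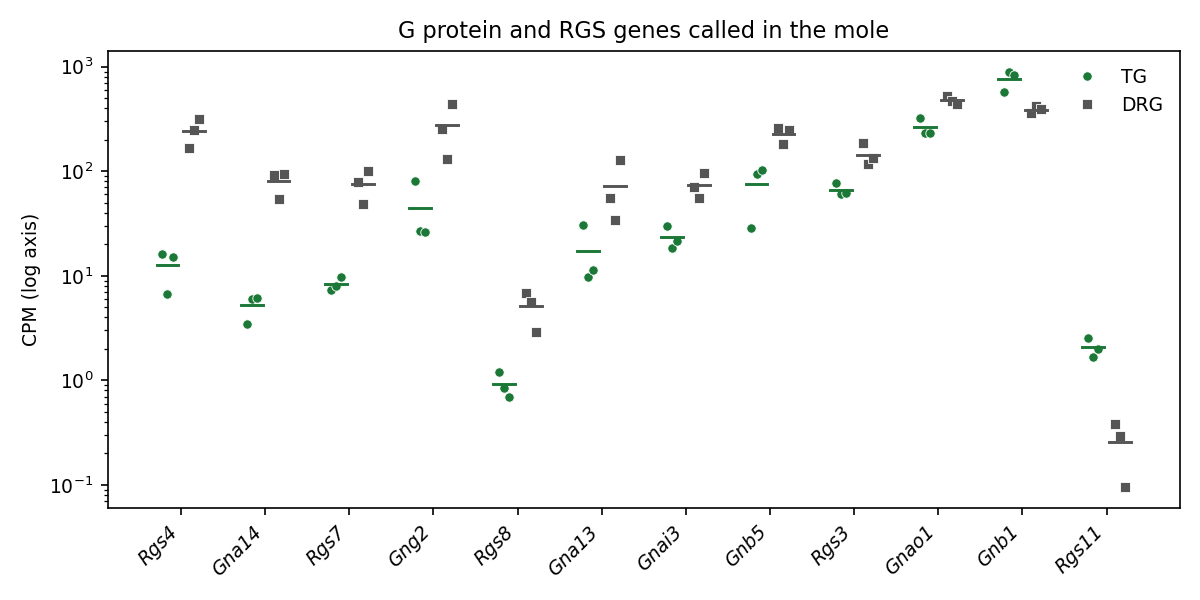
CPM on a log axis for the 12 G protein and RGS genes called between the mole ganglia, with a point for each of 3 TG (green circles) and 3 DRG (grey squares) libraries and a bar at each group mean. TG and DRG points do not overlap in any of the 12, and Rgs4, Gna14 and Rgs7 are the farthest apart among those higher in the DRG.

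Among the Gq class, Gna14, which couples receptors to phospholipase C beta, had the smallest adjusted p of the mole members. Its levels were 3.50, 6.05 and 6.18 CPM in mole TG 1, 2 and 3 and 91.5, 54.5 and 93.9 CPM in mole DRG 1, 2 and 3. Every DRG library was far above every TG library, and the log2 fold change was -3.92 ± 0.39 (SE), or 15.2-fold higher in the DRG (edgeR adjusted p 0.00659). Gnaq, its neighbour and the most widely used member of the class, had 57.7, 11.5 and 12.4 CPM in the TG and 88.4, 87.8 and 189 CPM in the DRG. The groups did not overlap, but mole TG 1 was close to the DRG and the log2 fold change of -2.17 ± 0.69 fell just outside the threshold (edgeR adjusted p 0.0550). Gna11 ranged from 21.1 to 37.3 CPM over the 6 libraries with overlapping groups and a log2 fold change of -0.04 ± 0.32, and Gna15, the promiscuous subunit of blood cells, ranged from 1.61 to 8.27 CPM (0.82 ± 0.64). Gna11 and Gnaq, which hold the longest shared run shown above, are listed separately in the table, and whether their changes differ was not tested.

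Among the inhibitory class, all 5 members had a log2 fold change below 0 in the mole and 2 were called. Gnai3 had 30.0, 18.5 and 21.4 CPM in the TG and 71.2, 55.8 and 96.0 CPM in the DRG, with no overlap (log2 fold change -1.68 ± 0.33, edgeR adjusted p 0.0149). With GC offsets that change was -0.66 and no longer called (edgeR adjusted p 0.104). Gnao1, the Go subunit that is abundant in neurons and acts through beta-gamma on calcium channels, had 320.2, 233 and 234 CPM in the TG and 526, 469 and 441 CPM in the DRG. The DRG libraries were all higher, by 1.83-fold (log2 fold change -0.87 ± 0.24, edgeR adjusted p 0.0399, and 0.0546 with a replicate block). Gnai2 had 303, 228 and 247 CPM in the TG against 465, 429 and 332 CPM in the DRG, without overlap and outside the threshold (-0.66 ± 0.25, edgeR adjusted p 0.0932). Gnai1 (-1.51 ± 0.53, edgeR adjusted p 0.0720) and Gnaz (-0.17 ± 0.26), the pertussis toxin-resistant member, had overlapping groups.

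Of the G12/13 class, Gna13 was called and Gna12 was not. Gna13 had 30.8, 9.77 and 11.3 CPM in the TG and 55.6, 33.9 and 129 CPM in the DRG. The lowest DRG value lay just above mole TG 1, and the log2 fold change was -2.08 ± 0.63 (edgeR adjusted p 0.0481). With GC offsets it was -2.30 (edgeR adjusted p 0.0664), without mole TG 1 it was -2.86 (0.0169) and without mole DRG 3 it was -1.42 (0.174). Gna12 ranged from 4.03 to 9.02 CPM with overlap (-0.66 ± 0.41). Gnas, which encodes the stimulatory Gs subunit, was the most abundant alpha subunit per length, at 1776, 3129 and 2966 CPM in the TG and 1900.3, 2153 and 1511 CPM in the DRG. Its groups overlapped (0.50 ± 0.30, edgeR adjusted p 0.250). The transducin genes of photoreceptors, Gnat1 and Gnat2, reached at most 14.4 CPM and overlapped. Gnat3, the gustducin of taste cells, had 2 to 7 counts per TG library and 5 to 122 per DRG library and was not tested. The highest count came from mole DRG 3, the largest library. In CPM, Gnat3 had 0.269 to 0.609 in the TG and 0.488 to 1.29 in the DRG, with overlap.

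The 5 beta subunits did not move as a group. Gnb1, a widespread beta subunit, had 579, 899.7 and 829 CPM in the mole TG and 359, 418 and 390.2 CPM in the DRG. All TG libraries were higher, by 1.98-fold (log2 fold change 0.98 ± 0.26, edgeR adjusted p 0.0322). Gnb5, the divergent beta subunit that pairs with the R7 family of RGS proteins, went the other way, with 28.6, 94.6 and 103 CPM in the TG and 259, 183 and 246 CPM in the DRG. Mole TG 1 was the lowest library and the groups did not overlap (-1.60 ± 0.47, edgeR adjusted p 0.0436). With GC offsets the change was -1.65 (edgeR adjusted p 0.0515), and with those offsets and the replicate block -1.80 (0.0483). Gnb2 (0.35 ± 0.29) and Gnb4 (-0.41 ± 0.40) had overlapping groups. Gnb3, the beta subunit of cones and taste cells, spread from 6.48 CPM in mole DRG 3 to 133 CPM in mole TG 2 and overlapped as well (1.44 ± 0.84, edgeR adjusted p 0.238). Gnb1l, which resembles beta subunits in its WD repeats but is not known as a signalling subunit, had 7.83 to 10.5 CPM in the TG and 2.93 to 4.75 CPM in the DRG (1.16 ± 0.40, edgeR adjusted p 0.0709).

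Of 9 gamma subunits tested in the mole, 1 was called. Gng2 had 80.7, 26.6 and 26.0 CPM in the TG and 251, 131 and 442 CPM in the DRG. The DRG libraries were all higher and spread widely among themselves (log2 fold change -2.63 ± 0.61, 6.20-fold higher in the DRG, edgeR adjusted p 0.0232). Without mole TG 1 the change was -3.45 (edgeR adjusted p 0.0103). Gng3, a gamma subunit of neurons and the most abundant one per length, had 569, 274 and 215 CPM in the TG and 399.9, 369 and 393 CPM in the DRG, and did not separate the ganglia (-0.14 ± 0.37). Gng5 (0.75 ± 0.40) and Gng7 (0.97 ± 0.44), which pairs with Golf in the striatum, were higher in every TG library without passing the test (edgeR adjusted p 0.203 and 0.142). Gng10 had 1.08 to 2.98 CPM in the TG and 3.70 to 6.95 CPM in the DRG (-1.15 ± 0.55, edgeR adjusted p 0.164), and Gng4, Gng8, Gng11 and Gng12 overlapped.

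Among the R4 family of RGS proteins, small regulators that act on Gi and Gq, 3 of 7 tested in the mole were higher in the DRG. Rgs4, an abundant regulator in neurons, had 16.3, 6.70 and 15.0 CPM in the TG and 168, 249.5 and 315 CPM in the DRG. Each DRG library was far above each TG library (log2 fold change -4.27 ± 0.45, 19.3-fold higher in the DRG, edgeR adjusted p 0.00756), and this was the largest log2 fold change in size among the 47 members tested. Rgs3 had 76.7, 61.0 and 62.1 CPM in the TG and 184, 116 and 133 CPM in the DRG (-1.12 ± 0.27, edgeR adjusted p 0.0264). Rgs8, a neuronal regulator, was low throughout, at 1.21, 0.837 and 0.696 CPM in the TG and 6.84, 5.56 and 2.91 CPM in the DRG (-2.48 ± 0.57, edgeR adjusted p 0.0233). Both had no overlap between the ganglia. Rgs2 (0.40 ± 0.44), Rgs1 (-0.58 ± 0.86), Rgs16 (-0.30 ± 0.49) and Rgs5 (-1.44 ± 0.71), a pericyte marker and the neighbour of Rgs4, had overlapping groups. Markers of vascular mural cells, summed, ranged from 302 to 914 CPM in the TG and from 244 to 539 CPM in the DRG. Rgs13, Rgs18 and Rgs21 had too few counts to be tested in the mole. Rgs18, known from platelets, had 2 to 4 counts per TG library and 4 to 183 per DRG library. The highest count came from mole DRG 3, the largest library. In CPM, Rgs18 had 0.261 to 0.372 in the TG and 0.380 to 1.94 in the DRG.

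The R7 family binds Gnb5, and in the mole its members went in both directions. Rgs7 had 7.26, 7.91 and 9.84 CPM in the TG and 79.5, 48.8 and 101 CPM in the DRG. The groups were far apart (log2 fold change -3.19 ± 0.36, 9.15-fold higher in the DRG, edgeR adjusted p 0.00756). Rgs11, known from retinal bipolar cells, was higher in the TG, at 2.56, 1.67 and 2.0 CPM against 0.380, 0.293 and 0.0955 CPM in the DRG (3.15 ± 0.79, edgeR adjusted p 0.0284). It rested on 19, 18 and 23 counts in the TG and 4, 3 and 9 counts in the DRG, and it was not called in the TruSeq libraries alone (0.0760), with GC offsets (0.0753), without the filter on low counts (0.0563) or with counts thinned to the smallest library (0.0543). Rgs9, the regulator of photoreceptors and striatum, had 1.61, 1.21 and 2.79 CPM in the TG and 6.74, 5.27 and 5.40 CPM in the DRG and fell just outside the threshold (-1.63 ± 0.50, edgeR adjusted p 0.0504). Rgs6 overlapped (-0.09 ± 0.46).

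**Figure D2:**
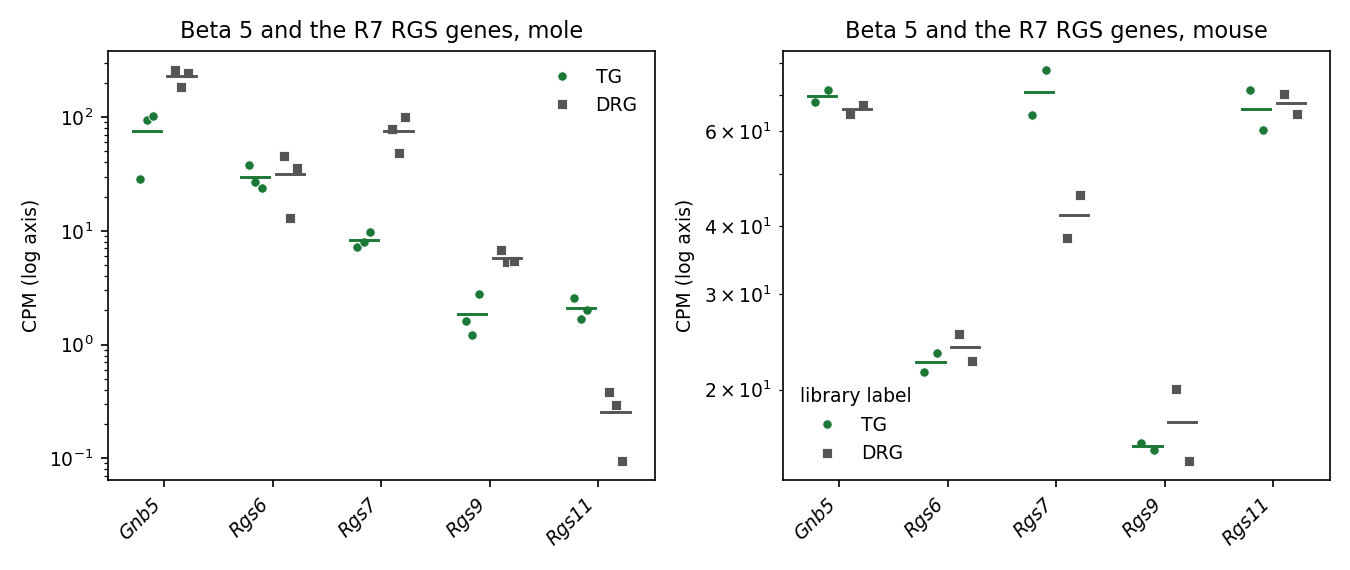
CPM on log axes for Gnb5 and the 4 R7 RGS genes in the mole (left) and the mouse (right, groups as labelled), with a point per library and a bar at each group mean. In the mole Gnb5, Rgs7 and Rgs9 sit higher in the DRG and Rgs11 in the TG, while in the mouse Rgs7 and, by a small margin, Gnb5 separate the labelled groups.

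No member of the RZ, R12 or remaining RGS families was called in the mole. Rgs20, an RZ regulator of Gz, had 4.98, 1.67 and 2.0 CPM in the TG and 9.88, 6.25 and 14.7 CPM in the DRG, without overlap (-1.85 ± 0.58, edgeR adjusted p 0.0524). Rgs17 (-1.30 ± 0.68) and Rgs19 (0.44 ± 0.34) overlapped, as did Rgs10 (-0.85 ± 0.42), which is known from microglia as well as neurons, Rgs12 (-0.09 ± 0.27), Rgs14 (0.57 ± 0.38) and Rgs22 (0.45 ± 0.94).

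The calls differed in how far they held. Gna14, Rgs4 and Rgs7 were called under all 16 alternative settings run for the mole, including those that left out 1 library, with log2 fold changes of -4.20 to -3.32, -4.77 to -3.36 and -3.50 to -2.37. The other 9 of the 12 were each lost when TG library 2 or 3 or DRG library 1 or 3 of the mole was left out: each of these 4 settings called 3 members, all higher in the DRG, while 2 or 3 members were higher in the TG and 12 to 14 in the DRG by edgeR at an unadjusted p under 0.05. Leaving out mole TG 1 gave 2 calls higher in the TG with 16 in the DRG, leaving out mole DRG 2 gave 4 and 15, and leaving out both gave 8 and 22. Over all genes these 3 settings called 2306 and 3619 of 19297, 3546 and 3490 of 19129, and 6236 and 5601 of 18717. The main fit called 1899 and 2341 of 18078. The 4 settings that called 3 members called 203 to 391 genes higher in the TG and 200 to 454 in the DRG. Counts of members called therefore moved with calls over all genes. The TruSeq libraries alone kept 10 of the 12 calls and lost Rgs8 (edgeR adjusted p 0.0671) and Rgs11, and Gnb1 and Rgs11 were lost without the filter on low counts (edgeR adjusted p 0.117 and 0.0563). GC content moved with these changes: transcripts of the 10 members higher in the DRG had a median of 48.2% GC and those of members not called 52.5%, and the rank correlation of GC with the log2 fold change was 0.501 over the 47 members and 0.561 over 13665 genes. With GC offsets, 8 of the 12 calls were kept. Of the 4 lost, Gnai3 moved to -0.66 and Rgs11 to 2.45, while Gna13 (-2.30) and Gnb5 (-1.65) were no smaller than without the offsets. Among those kept, Rgs4 moved to -3.36, Rgs7 to -2.37, Gna14 to -3.32 and Rgs3 to -1.89.

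In the mouse, the members called were mostly higher in the libraries labelled TG. Of 48 tested, 5 were higher in those libraries, where 1.12% of all genes tested were called, and 1 was higher in the libraries labelled DRG, where 1.21% were called. The 5 were Gnb4, Rgs4, Gna14, Rgs17 and Gnaq, and the 1 was Rgs16. The median log2 fold change was 0.07 over the members and -0.02 over all genes. Groups of 2 libraries did not overlap in 18 members higher in the libraries labelled TG (37.5%, against 24.2% of all genes) and in 8 higher in those labelled DRG (16.7%, against 23.9%). Of 9 nociceptor markers tested in the mouse, 6 were higher in the libraries labelled TG, with sums of 4606 to 4633 CPM against 2371 to 2408 CPM in those labelled DRG. Of 8 markers of myelinating Schwann cells, 7 were higher in the libraries labelled DRG (10399 to 13545 CPM, against 4145 to 4211 CPM). Central nervous system markers were higher in the same libraries (4 of 8 tested, 395 to 490 CPM against 175 to 188 CPM), and skeletal muscle markers were higher in those labelled TG (6 of 9, 39.5 to 52.0 CPM against 4.62 to 4.70 CPM). Their part in the member results was not tested.

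**Figure D3:**
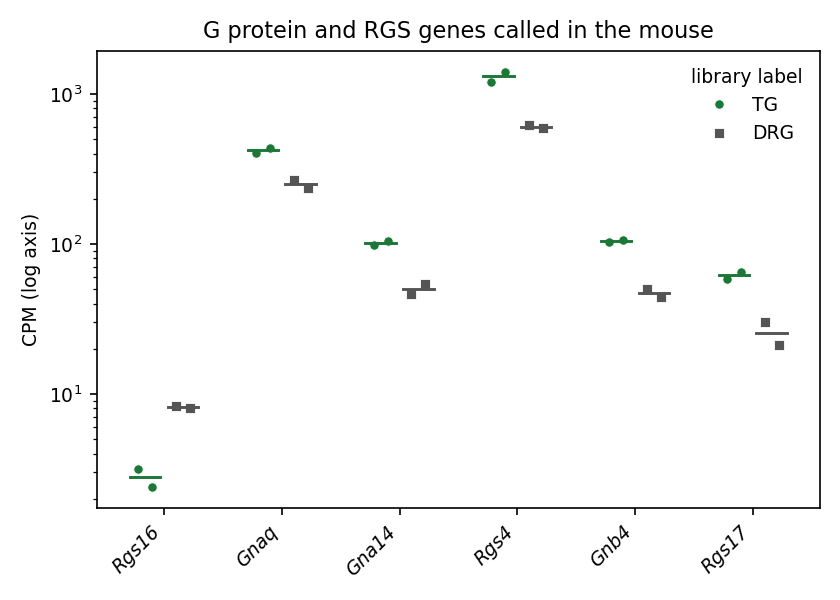
CPM on a log axis for the 6 G protein and RGS genes called between mouse libraries labelled TG (green circles, 2 libraries) and labelled DRG (grey squares, 2 libraries), with a bar at each group mean. Rgs4 is the highest of the 6 in all libraries, and Rgs16 is the one that is higher in the libraries labelled DRG.

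Both Gq members called in the mouse were higher in the libraries labelled TG. Gna14 had 98.1 and 104 CPM in mouse libraries labelled TG 1 and 2 and 46.5 and 54.2 CPM in those labelled DRG 1 and 2 (log2 fold change 1.01 ± 0.14, edgeR adjusted p 0.0290). Gnaq had 406 and 434 CPM against 266 and 235 CPM (0.75 ± 0.13, edgeR adjusted p 0.0443, and 0.0629 with a replicate block). The labelled groups were well apart in both genes. Gnb4, a beta subunit, had 103 and 106 CPM against 50.3 and 44.1 CPM (1.14 ± 0.14, edgeR adjusted p 0.0200), and its replicates lay close together beside a 2.21-fold difference.

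Rgs4 had 1205 and 1411 CPM in mouse libraries labelled TG and 621 and 589 CPM in those labelled DRG (1.11 ± 0.14, edgeR adjusted p 0.0200). Rgs17, an RZ regulator of Gi, Go and Gz, had 58.6 and 65.3 CPM against 30.0 and 21.2 CPM (1.28 ± 0.20, edgeR adjusted p 0.0386). Rgs16, an inducible R4 regulator, had 3.17 and 2.40 CPM against 8.36 and 8.03 CPM, so it was higher in the libraries labelled DRG (-1.56 ± 0.26, edgeR adjusted p 0.0433). Members just outside the threshold were Rgs5 (1.11 ± 0.21, edgeR adjusted p 0.0581), Gnao1 (0.69 ± 0.14, 0.0674), Gng2 (0.63 ± 0.13, 0.0724), Rgs7 (0.76 ± 0.17, 0.0876) and, higher in the libraries labelled DRG, Gng7 (-1.08 ± 0.23, 0.0787). Gnb1, Gnb2, Gnas, Gnai2 and Rgs11 had overlapping groups. Gnb5 was at 67.9 and 71.3 CPM against 64.6 and 67.1 CPM (0.08 ± 0.13). Gnat3, Rgs13 and Rgs21 were not tested in the mouse.

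Leaving out a mouse library leaves 1 library in its group, which is then assumed to vary like the other group, so these values say little about stability. No mouse call held when either library labelled TG was left out, and calls over all genes fell as well. With either library labelled DRG left out, more members were called, and calls over all genes rose as well. These changes are no result about the members. DESeq2 called 12 and 2 members, and 767 and 1031 of all 21394 genes tested. The log2 fold change of Gng3 was -0.02 ± 0.41 in the main fit and 0.83 without the library labelled DRG 2. Gng3 had 205 and 158 CPM in the libraries labelled TG and 102 and 268 CPM in those labelled DRG.

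Gna14 and Rgs4 were called in both species, in opposite directions by the labels: higher in the mole DRG and higher in mouse libraries labelled TG. In both species they were higher in the libraries with the higher sums of trunk Hox genes and of nociceptor markers. Sums of myelinating Schwann cell and central nervous system markers were lower in those libraries in both species. Sums of skeletal muscle markers were lower in those libraries in the mole (450 to 910 CPM against 1409 to 3458 CPM). In the mouse they were higher there (39.5 to 52.0 CPM against 4.62 to 4.70 CPM). A link of these markers to Gna14 or Rgs4 was not tested. Over the 47 members tested in both species, log2 fold changes had opposite signs in 31 (66.0%), against 61.7% of 14817 genes, and a Spearman correlation of -0.383 (Pearson -0.397), against -0.318 (-0.280) over all genes. These correlations are across genes, which share their libraries, and are given as a description. The rank correlation of GC with the log2 fold change also differed in sign between the species. Over members tested it was 0.501 in the mole and -0.329 in the mouse, and over all genes 0.561 and -0.262. The part of GC in the opposite signs was not tested.

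**Figure D4:**
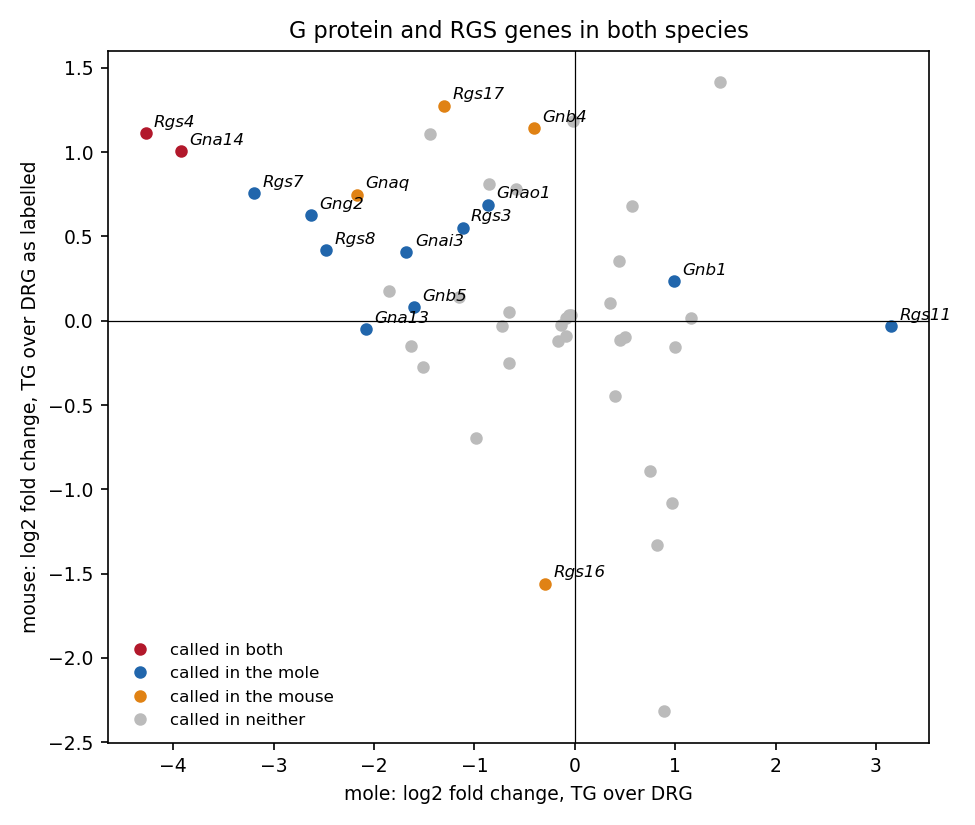
Log2 fold change of TG over DRG in the mole (horizontal axis) and in the mouse as labelled (vertical axis) for each of 47 G protein and RGS genes, coloured by the species in which it was called. Gna14 and Rgs4, called in both, lie at the upper left, where the change is below 0 in the mole and above 0 in the mouse.

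The difference between species was tested as an interaction in 1 edgeR fit of 10 libraries. Of 50 members tested, 17 had a higher TG over DRG ratio in the mouse as labelled, where 12.6% of all genes were called, and 1, Rgs11, in the mole, where 4.39% were called. The mole minus mouse difference was -5.84 ± 0.59 (SE) on the log2 scale for Rgs4, -5.41 ± 0.50 for Gna14 and -4.43 ± 0.50 for Rgs7 (edgeR adjusted p 0.000388, 0.000262 and 0.000753). For Rgs11 it was 3.07 ± 0.65 (0.0108). The size and call of each of these differences rest on the mouse labels, which the trunk Hox genes go against. The joint fit scales the species together, and the scaling mattered: its median over all genes was -0.16, and RLE factors moved it by 0.47, with 1570 genes called higher in the mole and 1697 in the mouse in place of 948 and 2723. Under RLE factors 10 members were called higher in the mouse and 2 in the mole, and the differences of Rgs4, Gna14 and Rgs7 were -5.38, -4.91 and -3.94. Called under all alternatives run for them were Gna14, Gnai3, Gnao1, Rgs3, Rgs4, Rgs7 and Rgs8, 7 of the 18. GC offsets and thinned counts were not run for the interaction. Within the mole, the change of Gnai3 was -0.66 with GC offsets and not called (edgeR adjusted p 0.104).

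To compare levels between genes, CPM was divided by the length of the mouse transcript, which stands in for the mole one, and expressed as a share of the class in each library. Among RGS genes, Rgs4 made up 3.36 to 6.75% in the mole TG, 29.5 to 46.3% in the mole DRG and 46.8 to 61.0% in the 4 mouse libraries. Rgs19 went the other way in the mole, with 15.4 to 18.3% in the TG and 3.19 to 7.12% in the DRG, although its CPM overlapped between the ganglia. Rgs3 held 11.4 to 20.3% in the mole, and Rgs10 held 14.8 to 21.3% in the mouse. A share also moves with the other members of its class.

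**Figure D5:**
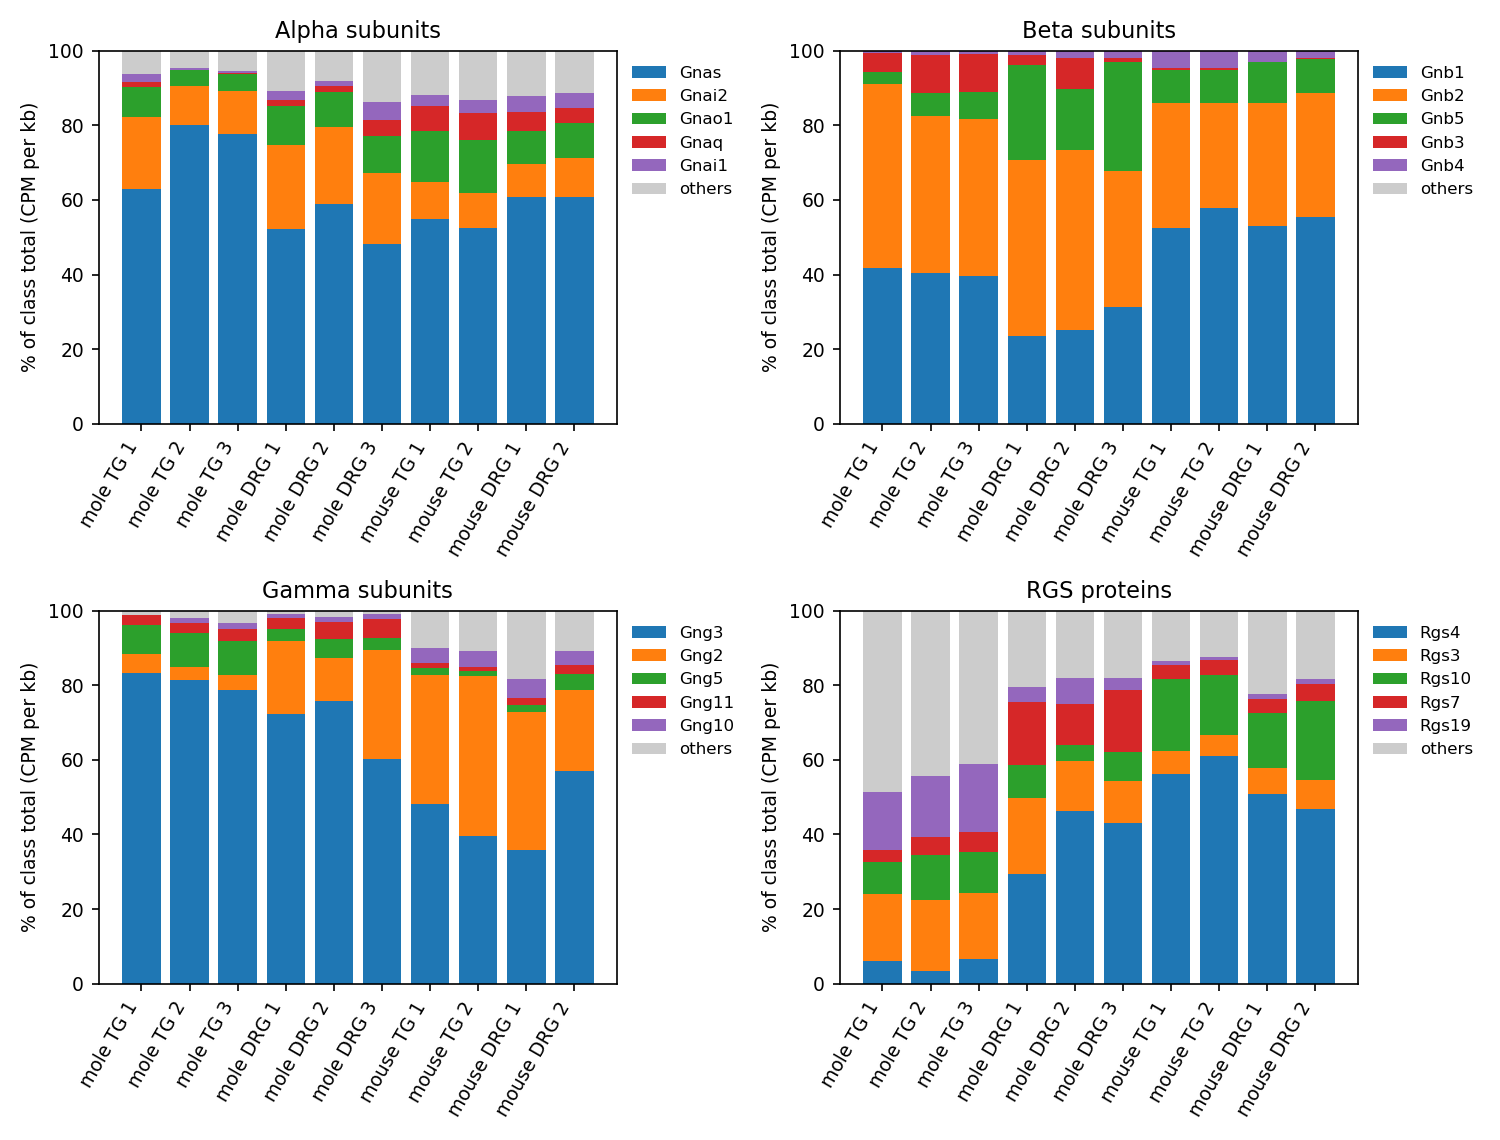
Share of each class total in each library, in % of summed CPM per kilobase of mouse transcript, for alpha, beta and gamma subunits and RGS proteins, with the 5 leading genes of a class coloured and all others in grey. Gnas leads the alpha subunits in all 10 libraries, and the Rgs4 share is small in the 3 mole TG libraries only.

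Gnas was first among alpha subunits in every library, at 48.3 to 80.1% in the mole and 52.6 to 60.9% in the mouse. Gnai2 followed in the mole (10.4 to 22.7%) while in the mouse Gnao1 (8.93 to 14.2%) and Gnai2 (8.76 to 10.5%) overlapped. Among beta subunits Gnb2 was above Gnb1 in each mole library, with mouse lengths standing in. In the mole TG, shares were 42.1 to 49.5% against 39.5 to 41.6%. In the mole DRG they were 36.5 to 48.0% against 23.6 to 31.3%. In each mouse library Gnb1 (52.4 to 57.8%) was above Gnb2 (28.2 to 33.5%). The share of Gnb5 was 3.07 to 7.32% in the mole TG and 16.6 to 29.4% in the mole DRG. Among gamma subunits Gng3 led in the mole (60.3 to 83.3%), and in the mouse its range (35.9 to 57.0%) overlapped that of Gng2 (21.9 to 42.9%). Gng2 held 3.39 to 5.07% in the mole TG and 11.6 to 29.1% in the mole DRG.

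The partners and targets of these subunits, were counted over a list of 45 genes. In the mole 41 were tested, of which 3 were called with higher TG levels and 4 with higher DRG levels, with a median log2 fold change of -0.11 against 0.11 over all genes. Among all genes tested 10.5% and 12.9% were called in these directions, so the list's counts are no result about the list. Plcb3, a phospholipase C beta that Gq activates, had 149, 142 and 136 CPM in the TG and 513, 357 and 333 CPM in the DRG, without overlap (-1.49 ± 0.26, edgeR adjusted p 0.0121). Gpr158, a receptor-like membrane protein that binds Rgs7 with Gnb5, had 33.1, 10.4 and 12.4 CPM in the TG and 102, 80.0 and 174 CPM in the DRG (-2.68 ± 0.53, edgeR adjusted p 0.0160). The guanine nucleotide exchange factors Arhgef12 (-1.86 ± 0.44) and Arhgef11 (-1.13 ± 0.34), which G12/13 activates, were also higher in the DRG. Higher in the TG were Ric8 (1.03 ± 0.25), a chaperone of alpha subunits, Gpsm1 (1.22 ± 0.30), which binds Gi, and the adenylyl cyclase Adcy6 (1.20 ± 0.33). In the mouse 43 were tested and 2 were called, both higher in the libraries labelled TG, where 1.12% of all genes were called. Plcb3 had 684 and 672 CPM against 323 and 305 CPM (1.11 ± 0.12, edgeR adjusted p 0.0159). Gnal, the Golf subunit of olfactory neurons and striatum, had 590 and 621 CPM against 334 and 305 CPM (0.92 ± 0.12, edgeR adjusted p 0.0249).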

How the data were processed

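The authors aligned reads with Stampy (substitution rate 0.03), mouse reads to mouse mRNA and mole reads in turn to human, dog and mouse transcripts, and deposited whole-number read counts per gene, with mole counts summed over homologs (HomoloGene build 64). The deposited counts were not normalized further. The deposited mouse counts held no column for replicate 3 of either ganglion, so these samples were not analysed here. In addition, 4 deposited lists of genes called by the authors were not used.

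Tests used edgeR 4.0.16 in R 4.3.3 (filterByExpr with a minimum count of 10, TMM factors, quasi-likelihood test, Benjamini-Hochberg adjustment over all genes tested, threshold 0.05) on 18078 mole genes, 21394 mouse genes and, for the interaction, 21580 of 24049 shared symbols. The SE is the size of the log2 fold change divided by the square root of F, and so is an approximation. The tests were tried on simulated data. Alternatives were a filter of at least 10 counts in every library, no filter, RLE factors, DESeq2 1.42.0, each library left out, a replicate block, the TruSeq libraries alone, counts without mole TG 1 and mole DRG 2, thinned counts, GC offsets (loess, span 0.3, GC of GENCODE M21 transcripts) and a 2-fold minimum. Thinned counts and GC offsets were run within each species and not for the interaction. 1 gamma subunit gene that the symbol pattern takes is not reported here. Members, lists and alternatives were chosen with earlier results of these data known. Members called in a comparison were given with all libraries, and from the pathway list up to 4 genes per direction were named. Replicate libraries of a group differed by more than sampling noise. No source says which HiSeq libraries were read at 36 or 50 bases.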

Additional observations from a re-analysis of the deposited data

Results flagged for a closer look

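The difference between the mole and the mouse in the TG over DRG change, tested by edgeR's interaction, passed for 18 members, with mouse groups as labelled. On the log2 scale, mole minus mouse, it was -5.41 for Gna14, -5.84 for Rgs4, -4.43 for Rgs7, -3.36 for Rgs8, -2.55 for Gnai3, -2.02 for Gnao1 and -2.14 for Rgs3, which were called under all alternatives run. It was 3.07 for Rgs11, which was lost without mouse TG 2 (edgeR adjusted p 0.0591), and -3.72 for Gng2. It was -2.15 for Rgs10, -2.02 for Gnb4, -3.37 for Gnaq, -3.08 for Rgs17 and -2.17 for Gnb5. It was -3.03 for Rgs5, -2.51 for Rgs20, -1.94 for Rgs9 and -4.93 for Gnat3. Each of the last 9, and Gng2, was lost when 1 of several libraries was left out. GC offsets and thinned counts were not among the alternatives run for the interaction. Gnat3 had 0 counts in both mouse libraries labelled DRG and 2 or 3 in those labelled TG, so its size depends on the prior count and is no bound. The trunk Hox genes go against the mouse labels, on which the size and call of each difference rest. The sign rests on them too where the mouse change is the larger.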

How the results depend on the processing

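With 1 library left out, mole members higher in the TG numbered 0 to 4 and in the DRG 3 to 16, mouse members 0 to 15 and 0 to 5, and the interaction called 0 to 3 higher in the mole and 7 to 21 in the mouse. Against 2 mole members higher in the TG, edgeR called 0 without the filter (2 at an unadjusted p under 0.05), 1 in the TruSeq libraries alone, with GC offsets (alone or with the block), with thinned counts or with a 2-fold minimum, and DESeq2 called 3. Without mole TG 1 and mole DRG 2 it called 8 and 22. Over all genes that setting called 6236 and 5601 of 18717, and DESeq2 in the mouse called 767 and 1031 of 21394. Against 5 and 1 in the mouse, DESeq2 called 12 and 2, no filter gave 8 and 2, GC offsets gave 9 higher in the libraries labelled TG, and GC offsets with the block gave 4 and 0 (4 higher in those labelled DRG at an unadjusted p under 0.05). Against 1 and 17 for the interaction, DESeq2 called 5 higher in the mole, RLE factors 2 and 10, the TruSeq libraries alone 2 and the setting without mole TG 1 and mole DRG 2 called 5. DESeq2 moved the median of the joint fit by 0.47, with 2893 and 2644 genes called. The log2 fold change of Gng3 in the mouse was -0.02 ± 0.41 with overlapping groups, so it had no clear direction. It was -0.56 without mouse DRG 1 and 0.83 without mouse DRG 2, each with 1 library left in that group. The cause was not tested, except that leaving out a library leaves fewer samples.

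Same-numbered mole libraries correlated at 0.367, 0.487 and -0.169 in their deviations from group means, and mole TG 3 correlated best with mole DRG 2, so the numbers were not taken as pairs. The replicate block gave 2 and 11 mole calls, losing Gnao1, 5 and 1 mouse calls, losing Gnaq, and 1 and 16 interaction calls. In the mouse the same-number correlation was -0.128, and the crossed pairing, chosen after seeing the data, called 12 and 2. Over all genes that pairing called 965 and 1318 of 21394. Rgs8 and Rgs11 rest on few counts in the mole, and differences in such genes are limited by depth.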
